A study of Mus musculus with 4 samples.

Results

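The BCL2 family genes described here are 10 named survival and death genes of the mitochondrial pathway of apoptosis. They were taken by symbol, from a list drawn up with earlier results of these data known. All 10 were found among the 24537 genes of the deposited table, and 9 of them, like 9810 genes in all, reached the mean of 1 FPKM required for testing. FPKM counts fragments per length of exon, scaled to the sequencing depth of the library, so it can be compared between genes. RNA was sequenced from tumour-infiltrating CD8+ T cells of mice bearing B16-GP33 melanoma, a line that carries a viral epitope seen by such cells, at day 21. There were 2 libraries of cells labelled ACSS2NLS and 2 libraries of cells labelled EV, all carrying the same tumour and taken on the same day. ACSS2 is the enzyme that turns acetate into acetyl-CoA, and NLS is usually short for nuclear localisation signal. Because no group had extra ACSS2 lacking the signal, the amount of the enzyme and its location cannot be told apart. The labels give neither the strain or age of the mice, nor the vector or promoter that drives Acss2, nor whether animals were pooled.

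In this pathway, the anti-apoptotic proteins BCL2, BCL-XL, MCL1 and A1 hold the pore-forming proteins BAX and BAK in check on the outer membrane of mitochondria. The BH3-only proteins BIM, PUMA and NOXA bind the anti-apoptotic proteins and so free BAX and BAK to release cytochrome c, which sets off the caspases. In T cells, cytokines of the common gamma chain family sustain BCL2 and MCL1, signals of the T cell receptor induce A1 through NF-kappaB, and BIM removes activated cells when a response ends. The comparison of ACSS2NLS with EV shows whether the RNA of these genes differs between the groups.

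The labels were checked first. Acss2 was at 80.7 and 86.3 FPKM in the ACSS2NLS libraries, against 3.66 and 3.92 FPKM in the EV libraries, so its level matched the labels. Depth ranged over 46000000 to 49300000 tags per library, with 39.6% to 41.9% of them counted on exons. The CD8 T cell markers, 9 of 10 listed genes, were above 0 in every library and summed to 2095 and 1639 FPKM in ACSS2NLS, against 2249 and 1869 FPKM in EV. Transcripts of other cells varied more. The 23 neutrophil and myeloid markers summed to 427 and 1469 FPKM in ACSS2NLS replicates 1 and 2, against 185 and 972 FPKM in EV replicates 1 and 2, with Cd74 and Lyz2 the highest. Single genes of that list went the other way: the neutrophil gene S100a8 was at 0.053 and 0.802 FPKM in ACSS2NLS, against 3.21 and 24.4 FPKM in EV, S100a9 was listed at 0 and at 0.401 FPKM in ACSS2NLS, against 2.87 and 24.1 FPKM in EV, and Cd14 was at 3.09 and 5.04 FPKM in ACSS2NLS, against 5.90 and 29.1 FPKM in EV. None of these 3 passed over all genes tested, and S100a9 and Cxcr2 were the myeloid markers listed at 0, both in ACSS2NLS replicate 1 alone. The 11 melanoma markers, led by Dct and Gpnmb, summed to 14.8 and 183 FPKM in ACSS2NLS, against 7.88 and 47.1 FPKM in EV, with none at 0. In these bulk samples fewer cells of a type and less RNA per cell cannot be told apart. B cell markers summed to 1.58 to 3.21 FPKM and NK cell markers to 27.2 to 47.1 FPKM over the 4 libraries, with only Pax5 and Ebf1 at 0 in any library. Gzma and Eomes, both higher in ACSS2NLS, led the NK sum. CD8 T cells also express these genes, so the sum does not measure NK cells alone. Lower in ACSS2NLS were Ncr1, at 0.930 and 0.711 FPKM against 1.08 and 1.26 FPKM in EV, and Klrb1c, at 0.976 and 0.560 FPKM against 1.34 and 1.90 FPKM in EV. Klra8, Klra4 and Klra9 overlapped between the groups.

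None of the 9 tested BCL2 family genes differed between ACSS2NLS and EV cells past the threshold (limma-trend, Benjamini-Hochberg adjusted over all genes tested, 0.05), and the smallest of their adjusted p-values was 0.81. Over all genes tested 0.0204% were called, all of them higher in ACSS2NLS, so a count of 0 among 9 sits at the background. At an unadjusted p under 0.05 the count was also 0, against 5.97% of all genes. On the log2(FPKM + 1) scale, 7 of the 9 had a lower and 2 a higher mean in ACSS2NLS, with a median difference of -0.15, while 46.8% of all genes were lower and 53.2% higher, with a median of 0.015. For 3 members, Mcl1, Bax and Bbc3, both ACSS2NLS libraries lay below both EV libraries, and none lay above; 18.1% of all genes tested showed the first pattern and 19.3% the second, 37.4% together. Under quantile normalization the split was 5 lower and 4 higher, and without EV replicate 2 it was the same, with a median of -0.021. Over the alternatives run, the members' median stayed below 0, at -0.18 to -0.021. The 9 CD8 T cell markers had the same split, with 7 lower and 2 higher in mean, a median of -0.15 and 3 genes apart downward, and their part in the members' levels was not tested.

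**Figure D1:**
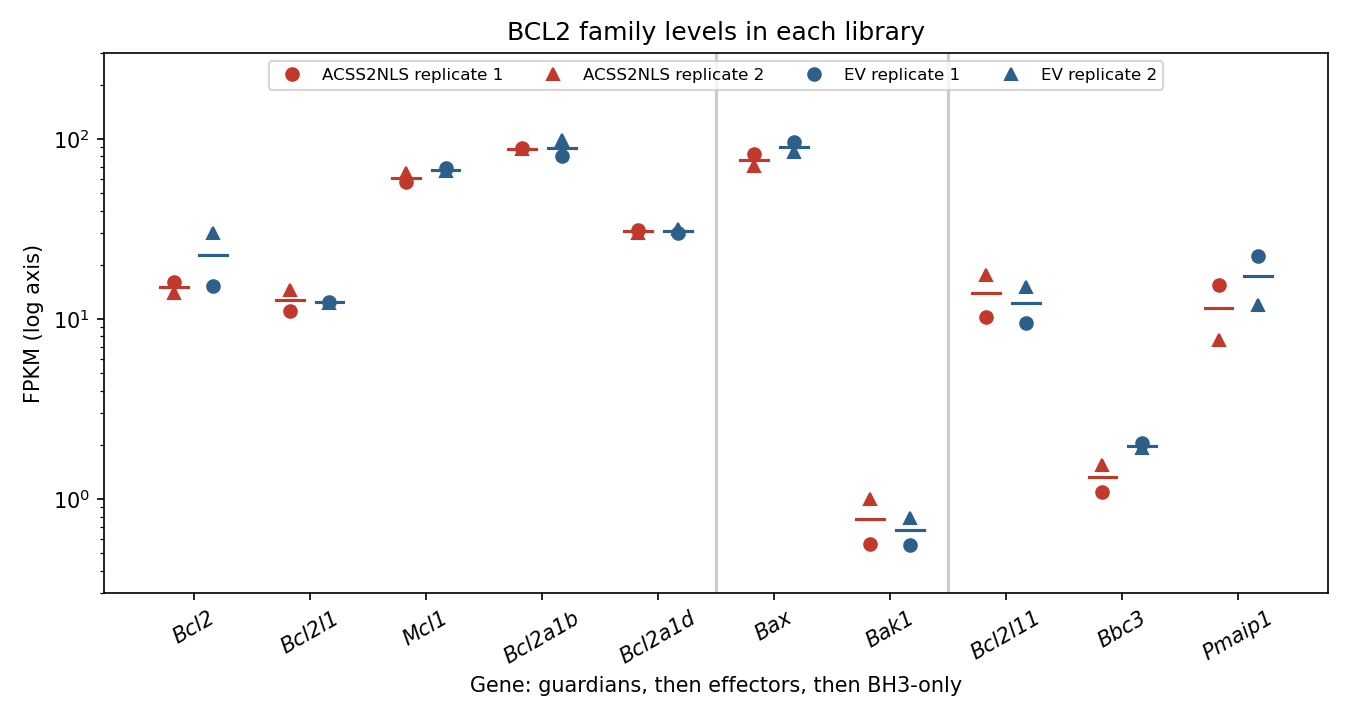
FPKM of the 10 BCL2 family genes on a log axis, with ACSS2NLS libraries in red left of EV libraries in blue, circles for replicate 1, triangles for replicate 2 and short lines for group means. Bcl2a1b, Bax and Mcl1 stand highest, Bbc3 and Bak1 lowest, and the EV libraries are far apart for Bcl2.

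The 10 genes spanned more than 2 orders of magnitude. Averaged over the 4 libraries, Bcl2a1b stood at 89.1 FPKM, Bax at 83.6 FPKM and Mcl1 at 64.3 FPKM, which placed all 3 above 97.9% of the rows of the table or higher. Bcl2a1d followed at 30.7 FPKM and Bcl2 at 18.8 FPKM. Pmaip1, Bcl2l11 and Bcl2l1 were close together, at 14.4, 13.1 and 12.6 FPKM. Bbc3, at 1.65 FPKM, and Bak1, at 0.725 FPKM, came last. The libraries of Bcl2a1b and Bax overlapped, as did those of Bcl2, Pmaip1, Bcl2l11 and Bcl2l1, so the order within these sets does not exceed the spread between libraries. Bax and Bak1, which encode the pair of pore-forming proteins, thus stood near opposite ends of this order.

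The gene for A1, Bcl2a1, exists in the mouse as several near-identical copies on chromosome 9, and their sequences bear on how far the levels of Bcl2a1b and Bcl2a1d can be separated. Over a coding length of 519 bases, Bcl2a1b and Bcl2a1d differed at 6 positions (98.8% identity), Bcl2a1b and Bcl2a1a at 11 and Bcl2a1d and Bcl2a1a at 7. The first 90 coding bases hold 6 of the 12 positions at which any of the 3 copies differ, and these are in capitals. They lie at chr9:88957051-88957140 on the plus strand for Bcl2a1a, chr9:89199360-89199449 on the plus strand for Bcl2a1b and chr9:88731630-88731719 on the minus strand for Bcl2a1d (GENCODE M21 transcripts, GRCm38).
Bcl2a1a: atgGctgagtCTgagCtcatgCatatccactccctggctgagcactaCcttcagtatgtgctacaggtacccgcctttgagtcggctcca
Bcl2a1b: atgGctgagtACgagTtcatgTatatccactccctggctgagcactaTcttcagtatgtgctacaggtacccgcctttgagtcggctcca
Bcl2a1d: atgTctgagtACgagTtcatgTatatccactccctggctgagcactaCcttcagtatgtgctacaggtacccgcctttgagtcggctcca
Counted from 1 at the A of the start codon, Bcl2a1d differs from Bcl2a1b in this stretch by G4T and T48C, and farther on by A94C, G312A, C381G and T490A. Of all windows of 50 bases in each transcript, 20.5% of those of Bcl2a1d, 42.4% of those of Bcl2a1b and 31.0% of those of Bcl2a1a were found in that copy and in no other. The treatment of reads that match several copies was not given in the sources used here, and the split between copies is uncertain for that reason.

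Within that limit, the copies stood at very different levels. Bcl2a1b, listed higher than Bcl2a1d, also had the larger share of windows found in no other copy (42.4% against 20.5%). The part of this in their levels was not tested. Bcl2a1b (NM_007534; mm10 chromosome 9, 89199273 to 89207838, plus strand) was at 89.2 and 87.8 FPKM in ACSS2NLS, against 80.4 and 98.8 FPKM in EV (log2 change -0.011 ± 0.14 SE, 95% interval -0.37 to 0.35). Bcl2a1d (NM_007536; mm10 chromosome 9, 88723288 to 88731850, minus strand) was at 31.3 and 30.1 FPKM in ACSS2NLS, against 29.9 and 31.6 FPKM in EV (log2 change -0.0024 ± 0.11 SE, 95% interval -0.27 to 0.27). For both copies the ACSS2NLS libraries lay inside the range of the EV libraries. Bcl2a1b shares 401 exon bases with the annotated gene Gm29094 on the same strand, which is not named among the genes of the deposited table. Bcl2a1a was at 0.517 and 1.54 FPKM in ACSS2NLS, against 0.165 and 0.845 FPKM in EV, and with a mean of 0.767 FPKM it was not tested. Bcl2a1c, the most distant copy, was at 0.279 and 0.422 FPKM in ACSS2NLS, against 0.247 and 0.230 FPKM in EV, and was not tested.

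Summing Bcl2a1b and Bcl2a1d avoids the split between them. Together they stood at 120.5 and 117.9 FPKM in ACSS2NLS, against 110.3 and 130.4 FPKM in EV, and Bcl2a1b supplied 74.0% and 74.5% of that sum in ACSS2NLS and 72.9% and 75.8% in EV. The share was therefore nearly the same in the 4 libraries. Neutrophils and macrophages also make A1, and the summed myeloid markers, led by Cd74 and Lyz2, ranged over 185 to 1469 FPKM, while S100a8 and S100a9 had the other direction between the groups; the part of these cells in the A1 levels was not tested. A stretch of promoter that the copies share is shown beside these levels. The 100 bases at chr9:88956750-88956849 (plus strand) end 70 bases before the RefSeq start of Bcl2a1a. They were identical to those at chr9:89199059-89199158 (plus strand), which end 114 bases before the RefSeq start of Bcl2a1b. Bcl2a1d at chr9:88731921-88732014 (minus strand) lacked 6 bases, in capitals in the first line (RefSeq, GRCm38.p6).
Bcl2a1a and Bcl2a1b: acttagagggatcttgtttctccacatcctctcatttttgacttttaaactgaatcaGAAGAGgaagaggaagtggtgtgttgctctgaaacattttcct
Bcl2a1d: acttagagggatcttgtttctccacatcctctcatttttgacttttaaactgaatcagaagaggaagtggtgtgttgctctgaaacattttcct
This window was taken from a stretch that the copies share, so their likeness there follows in part from that choice. The bases nearer to the starts were not compared, and the part of sequence in the levels of the copies was not tested.

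Among the other anti-apoptotic genes, Bcl2 had the largest difference in log2 mean, and it came from 1 EV library. Bcl2 (NM_177410; mm10 chromosome 1, 106712165 to 106714290, minus strand) was at 16.0 and 13.96 FPKM in ACSS2NLS, against 15.2 and 29.9 FPKM in EV. Both ACSS2NLS libraries and EV replicate 1 were thus alike, and EV replicate 2 alone stood above them. The log2 change was -0.49 ± 0.31 (SE; limma-trend, adjusted p = 0.822), with a 95% interval from -1.26 to 0.28, and without EV replicate 2 it was -0.021. With 1430 to 3130 tags behind each value, the counting error of 1.79% to 2.64% is far smaller than that gap. Il7r, which encodes the IL-7 receptor chain that sustains BCL2 and was picked here after its values were seen, was also highest in EV replicate 2, at 6.40 and 8.18 FPKM in ACSS2NLS, against 8.62 and 14.6 FPKM in EV. Other genes, Bcl2a1b and S100a8 among them, were highest in that library too, and a tie between Il7r and Bcl2 was not tested.

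The level of Bcl2 rests on a short transcript. The authors' counting kept a single transcript per gene, and for Bcl2 this was NM_177410, which spans the first exon. Of the 7191 exon bases of the longer transcript NM_009741, 1970 (27.4%) lie within that span, as do 576 of its 708 coding bases, while its last exon of 5221 bases (GENCODE M21, chromosome 1, 106538178 to 106543398) lies outside it. Reads from the last exon therefore did not enter the FPKM of Bcl2, and its rank among the members holds for the first exon only.

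Mcl1 was high and nearly even across libraries. MCL1 is a short-lived protein on which T cells depend at most stages. Its gene (NM_008562; mm10 chromosome 3, 95658721 to 95663178, plus strand) was at 57.4 and 64.7 FPKM in ACSS2NLS, against 68.8 and 66.4 FPKM in EV, so the groups did not overlap, though ACSS2NLS replicate 2 lay close to EV replicate 2. The difference of -0.15 ± 0.12 (SE) on the log2 scale, 0.903-fold in mean FPKM, did not pass (limma-trend, adjusted p = 0.846). With 9750 to 11400 tags per library, Mcl1 was the most deeply counted member. Bcl2l1 (NM_009743; mm10 chromosome 2, 152780664 to 152831728, minus strand), which encodes BCL-XL, was at 11.1 and 14.5 FPKM in ACSS2NLS, against 12.4 and 12.3 FPKM in EV. The ACSS2NLS libraries lay on either side of the EV libraries, and the log2 change was 0.034 ± 0.16 (SE).

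Of the 2 pore-forming genes, Bax was abundant and Bak1 scarce. Bax (NM_007527; mm10 chromosome 7, 45461695 to 45466898, minus strand) was at 82.3 and 70.8 FPKM in ACSS2NLS, against 96.4 and 84.8 FPKM in EV. Both ACSS2NLS libraries lay below both EV libraries, and in each group replicate 2 was the lower, as it was for the summed CD8 T cell markers. The log2 change of -0.24 ± 0.14 (SE), 0.845-fold in mean FPKM, did not pass (limma-trend, adjusted p = 0.821), and it stayed between -0.13 and -0.35 whichever library was left out. Bax shares 192 exon bases with the annotated gene Gm45808 on the same strand, which is not named among the genes of the deposited table.

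Bak1 (NM_007523; mm10 chromosome 17, 27019812 to 27028626, minus strand) was at 0.565 and 0.996 FPKM in ACSS2NLS, against 0.557 and 0.783 FPKM in EV, and the groups overlapped. It missed the filter on low values and so was not among the 9 genes tested. With no filter its log2 change was 0.085 ± 0.19 (SE; limma-trend, adjusted p = 1). Each value rested on 51 to 96 tags, with a counting error of 10.2% to 14%. Bak1 shares 396 exon bases within its counted span with Ggnbp1 on the opposite strand, which was at 0.133 FPKM or less in every library.

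The BH3-only genes Pmaip1 and Bcl2l11 differed more between libraries of the same group than between the groups. Pmaip1 (NM_021451; mm10 chromosome 18, 66458604 to 66465558, plus strand), which encodes NOXA, a partner of MCL1 and A1, was at 15.4 and 7.66 FPKM in ACSS2NLS, against 22.4 and 12.02 FPKM in EV. Replicate 2 stood below replicate 1, at -0.92 on the log2 scale in ACSS2NLS and -0.85 in EV, and EV replicate 2 lay between the ACSS2NLS libraries. The log2 change of -0.55 ± 0.39 (SE), 0.668-fold in mean FPKM, did not pass (limma-trend, adjusted p = 0.835); its 95% interval ran from -1.54 to 0.43. Without EV replicate 1 the change was -0.13, and without ACSS2NLS replicate 2 it was -0.095.

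Bcl2l11 (NM_207680; mm10 chromosome 2, 128126038 to 128162547, plus strand), which encodes BIM, showed the opposite order within each group. It was at 10.2 and 17.5 FPKM in ACSS2NLS, against 9.51 and 15.1 FPKM in EV. Replicate 2 stood above replicate 1 by 0.72 on the log2 scale in ACSS2NLS and by 0.61 in EV, far more than the groups differed, at 0.15 ± 0.31 (SE; limma-trend, adjusted p = 0.938). The sign of that difference turned without EV replicate 1 (-0.16) or ACSS2NLS replicate 2 (-0.21). Myeloid and melanoma markers were likewise higher in replicate 2 of each group, with the sums given above, and their part in the level of Bcl2l11 was not tested.

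Bbc3 (NM_133234; mm10 chromosome 7, 16309583 to 16318334, plus strand), which encodes PUMA, a target of p53, was low, at 1.10 and 1.54 FPKM in ACSS2NLS, against 2.04 and 1.92 FPKM in EV. Both ACSS2NLS libraries lay below both EV libraries. Its log2 change of -0.37 ± 0.18 (SE), 0.668-fold in mean FPKM, had the smallest p-value of the members, 0.0931 before adjustment and 0.81 after it (limma-trend). The change kept its direction whichever library was left out, from -0.23 without ACSS2NLS replicate 1 to -0.50 without ACSS2NLS replicate 2. It rested on 106 to 186 tags per library, with a counting error of 7.33% to 9.71%.

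**Figure D2:**
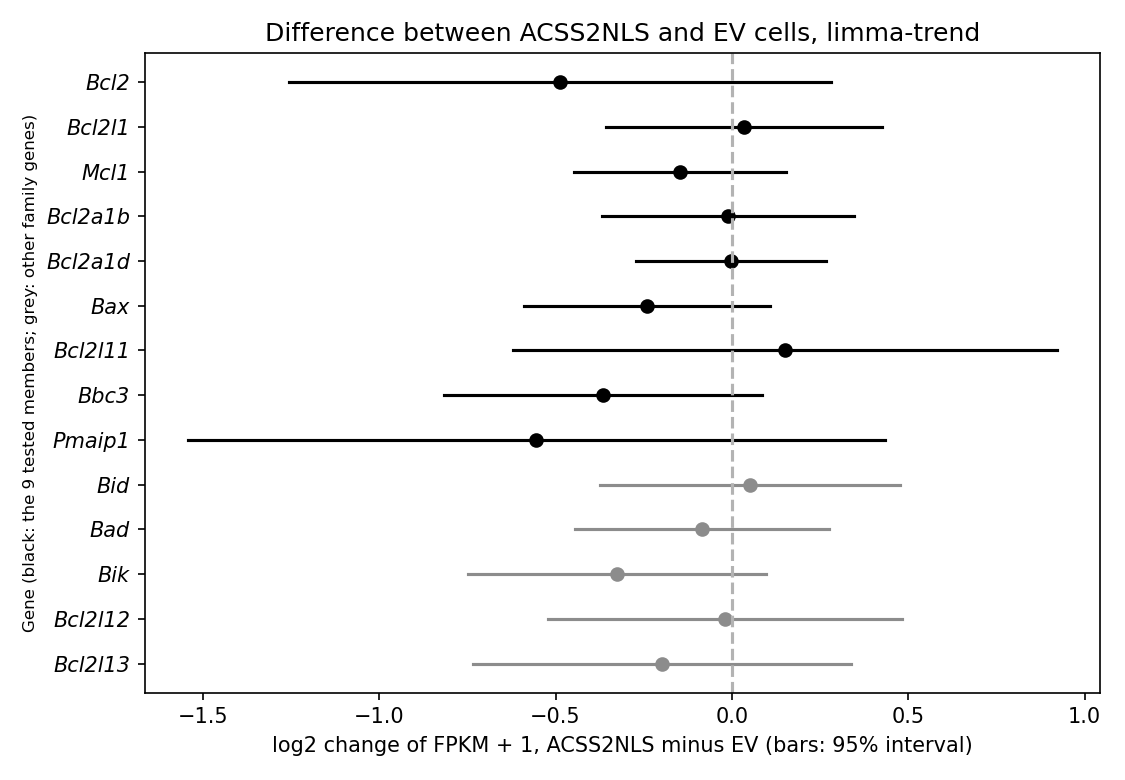
Difference of mean log2(FPKM + 1), ACSS2NLS minus EV, for the 9 tested members in black and 5 other BCL2 family genes in grey, with 95% intervals from limma-trend. Every interval crosses 0, and those of Bcl2, Bcl2l11 and Pmaip1 are the widest.

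Ratios between members were taken within a library. Each pair sets opposing genes against each other, except Bcl2 to Mcl1, which are both anti-apoptotic. Ratios of FPKM need no scaling between libraries, whereas differences of log2(FPKM + 1) are not wholly free of it. Bcl2l11 stood at 0.639 and 1.25 times the FPKM of Bcl2 in ACSS2NLS, against 0.626 and 0.505 times in EV. ACSS2NLS replicate 2 was thus the sole library in which the FPKM of Bcl2l11 exceeded that of Bcl2, and the other 3 lay between 0.505 and 0.639. The FPKM of Bcl2 holds for the first exon only, so a ratio of 1 has no meaning of its own. That library also had the highest summed myeloid and melanoma markers, at 1469 and 183 FPKM. The part of other cells in the ratio was not tested. On the log2(FPKM + 1) scale the mean ratio was higher by 0.64 in ACSS2NLS, against an SD within groups of 0.48, and leaving out 1 library put it between 0.18 and 1.09. An exact permutation test of 2 libraries against 2 cannot give a p below 0.33, so no test was made.

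As ratios of FPKM, the other pairs overlapped between the groups. Leaving out 1 library turned the sign of their mean log2 difference for Bcl2l11 to Mcl1, Bcl2 to Mcl1, Bax to Bcl2 and Pmaip1 to Mcl1. Bcl2l11 was at 0.178 and 0.271 times Mcl1 in ACSS2NLS, against 0.138 and 0.227 times in EV. Bax was at 5.14 and 5.07 times Bcl2 in ACSS2NLS, against 6.34 and 2.84 times in EV, and Bcl2 was at 0.279 and 0.216 times Mcl1 in ACSS2NLS, against 0.221 and 0.450 times in EV. In both of these pairs EV replicate 2 stood apart, the library with the high Bcl2. Pmaip1 was at 0.268 and 0.118 times Mcl1 in ACSS2NLS, against 0.326 and 0.181 times in EV. Bak1 was at 0.00985 and 0.0154 times Mcl1 in ACSS2NLS, against 0.00810 and 0.0118 times in EV. On the log2(FPKM + 1) scale this pair did not overlap, at -5.22 and -5.04 in ACSS2NLS, against -5.49 and -5.24 in EV. The mean was higher by 0.23 in ACSS2NLS, against an SD within groups of 0.15. Leaving out 1 library put it between 0.11 and 0.36. Bak1 was below 1 FPKM in every library, so on this scale the added 1 outweighs the gene.

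**Figure D3:**
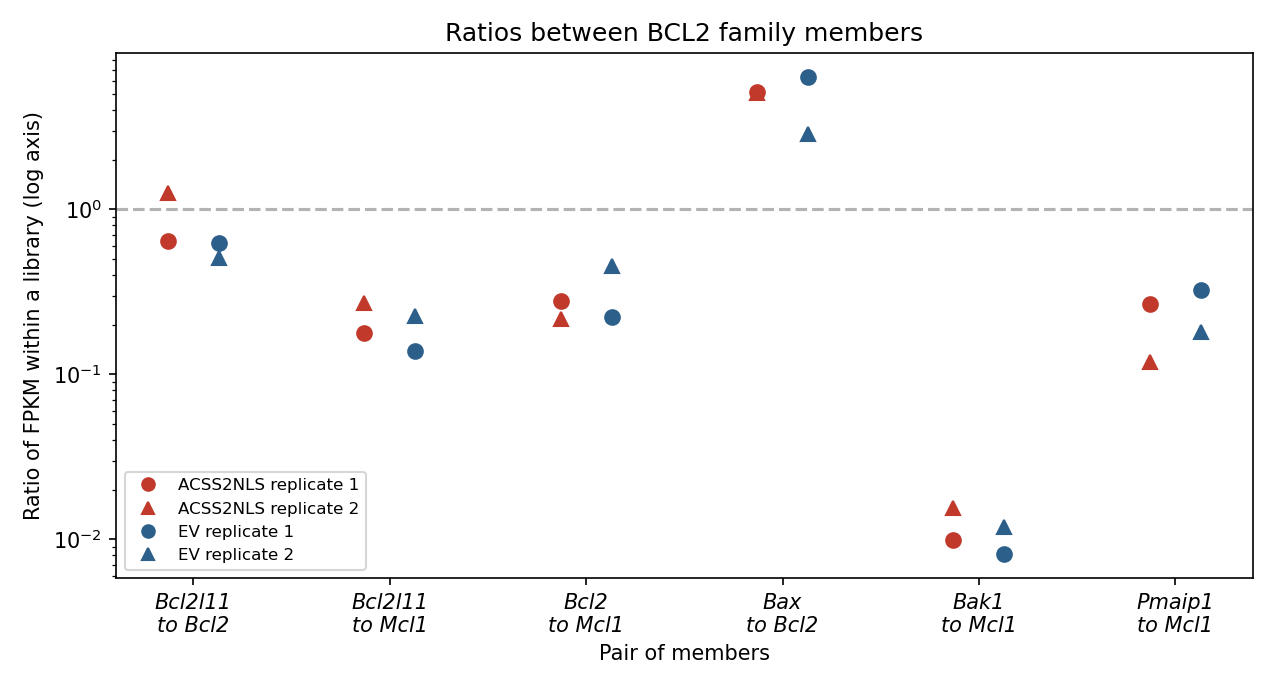
Ratio of FPKM between 2 members within each library on a log axis, with ACSS2NLS libraries in red left of EV libraries in blue, circles for replicate 1 and triangles for replicate 2. The groups overlap in all 6 pairs except Bcl2l11 to Bcl2, where the ACSS2NLS libraries are at 0.639 and 1.25 and the EV libraries at 0.505 and 0.626.

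Other BCL2 family genes were mostly near or below 1 FPKM. Of 14 listed, 5 were tested, of which 1 had a higher and 4 a lower mean in ACSS2NLS (median log2 change -0.084), and 0 passed. Bid, a BH3-only protein that caspase-8 cleaves to link death receptors to mitochondria, was at 12.1 and 16.2 FPKM in ACSS2NLS, against 12.6 and 14.4 FPKM in EV. Bad, which binds BCL2 and BCL-XL, was at 10.4 and 10.4 FPKM in ACSS2NLS, against 12.4 and 9.94 FPKM in EV. These BH3-only genes were thus at about the level of Bcl2l11.

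Bik was near the filter and the only tested gene of this list whose groups did not overlap, at 0.788 and 0.774 FPKM in ACSS2NLS, against 1.19 and 1.28 FPKM in EV (log2 change -0.33 ± 0.17 SE, limma-trend, adjusted p = 0.81). Of all genes tested, 37.4% had groups apart in either direction. Bcl2l12 was at 7.48 and 5.72 FPKM in ACSS2NLS, against 7.78 and 5.67 FPKM in EV, and Bcl2l13 at 3.67 and 5.84 FPKM in ACSS2NLS, against 5.70 and 5.28 FPKM in EV. Bcl2l2, Bmf, Bok, Bcl2l14 and Bcl2l15 stayed below 1 FPKM in every library, and Hrk and Bcl2l10 were listed at 0 in all of them. The anti-apoptotic RNA measured was thus mostly that of Mcl1, the A1 copies, Bcl2 and Bcl2l1, with Bcl2l2, which encodes BCL-W, at 0.112 FPKM or less.

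Downstream of mitochondria, genes of the apoptosome, the caspases and their inhibitors had no common direction. Of 20 tested, 11 were higher and 9 lower in mean in ACSS2NLS; their log2 changes had a median of 0.024, against 0.015 over all genes, and 0 passed in either direction. The inhibitor of apoptosis gene Birc2 was at 9.49 and 9.06 FPKM in ACSS2NLS, against 11.6 and 11.3 FPKM in EV (-0.28 ± 0.12 SE). Birc5, which encodes survivin and acts in mitosis as well, was at 67.8 and 65.0 FPKM in ACSS2NLS, against 92.0 and 74.5 FPKM in EV (-0.31 ± 0.14 SE). For both genes the ACSS2NLS libraries lay below the EV libraries, though neither passed. In this list the groups lay apart downward for 4 genes and upward for 3, against 18.1% and 19.3% of all genes tested.

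Cycs, the gene of cytochrome c, was at 1.999 and 1.27 FPKM in ACSS2NLS, against 0.933 and 1.18 FPKM in EV, with the ACSS2NLS libraries above either EV library. It has near-identical pseudogene copies that make its count uncertain. Dffb, which encodes the nuclease that cuts DNA in dying cells, was at 3.12 and 5.18 FPKM in ACSS2NLS, against 5.24 and 5.30 FPKM in EV, with the ACSS2NLS libraries below either EV library and a log2 change of -0.31 ± 0.22 (SE).

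The death receptor pathway, which reaches caspases from the cell surface, likewise had 0 of 14 genes past the threshold, 9 with a higher and 5 with a lower mean (median log2 change 0.054). Tnfaip3, which encodes A20, a brake on NF-kappaB, was at 112 and 50.2 FPKM in ACSS2NLS, against 270 and 130 FPKM in EV (-1.31 ± 0.48 SE, limma-trend, adjusted p = 0.81). The groups did not overlap, and in each group replicate 2 was the lower. Tnfrsf1a, a receptor for TNF, had the reverse order, at 6.62 and 11.9 FPKM in ACSS2NLS, against 4.24 and 6.55 FPKM in EV (0.65 ± 0.30 SE). Fas, the receptor of FAS ligand, was at 10.04 and 9.12 FPKM in ACSS2NLS, against 7.54 and 9.97 FPKM in EV, and the adaptor gene Traf1 at 35.0 and 35.9 FPKM in ACSS2NLS, against 31.1 and 33.9 FPKM in EV. The groups lay apart upward for 2 genes of this list, Tnfrsf1a and Traf1, and downward for 1, Tnfaip3. Over all genes tested the shares were 19.3% and 18.1%.

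Genes of p53, FOXO and E2F, the regulators that act on Bbc3, Pmaip1 and Bcl2l11, and their targets were mostly lower in mean. Of 15 tested, 12 were lower and 3 higher in mean; their log2 changes had a median of -0.32, and for 7 of them, against 18.1% of all genes, both ACSS2NLS libraries lay below both EV libraries; 0 passed over all genes tested. Without EV replicate 1 the median was -0.15, with 11 lower and 4 higher, and with no filter on low values it was -0.20. The list was drawn up with earlier results of these data known. The 3 higher genes were Trp53 itself (0.17 ± 0.15 SE), Mdm4 (0.081 ± 0.175 SE) and Sesn1 (0.23 ± 0.24 SE), all with overlapping groups. Groups also overlapped for the p53 targets Mdm2 (-0.12 ± 0.15 SE), Aen (-0.10 ± 0.14 SE), Ccng1 and Sesn2, which were lower in mean. The genes given next are those with the smallest unadjusted p of the list. Cdkn1a, the cell cycle inhibitor p21 and a p53 target, was at 10.4 and 13.7 FPKM in ACSS2NLS, against 30.2 and 18.5 FPKM in EV (-0.93 ± 0.26 SE, limma-trend, adjusted p = 0.81). Its ACSS2NLS libraries were both below its EV libraries.

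Gadd45a, a stress-induced gene, was at 2.56 and 1.68 FPKM in ACSS2NLS, against 5.50 and 3.12 FPKM in EV (-0.74 ± 0.28 SE). Perp, a p53 target at the cell membrane, was at 8.498 and 7.31 FPKM in ACSS2NLS, against 10.1 and 10.1 FPKM in EV (-0.32 ± 0.13 SE). Txnip, which binds thioredoxin and is a FOXO target, was at 21.7 and 28.1 FPKM in ACSS2NLS, against 29.6 and 36.1 FPKM in EV (-0.39 ± 0.17 SE). In all 3 the groups did not overlap, and none passed.

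Genes of the cytokine signals that sustain BCL2 and MCL1 had a similar split. Of 17 tested, 14 were lower and 3 higher in mean (median log2 change -0.26), the groups lay apart downward for 8 (18.1% of all genes) and upward for 0 (19.3% of all genes), and 0 passed over all genes. Under quantile normalization the median was -0.17. Without ACSS2NLS replicate 1 it was -0.21, with 11 lower and 6 higher, and without EV replicate 1 it was -0.19, with 16 lower and 1 higher. The list joins receptors and kinases with inhibitors of the same signals (Cish, Socs1 and Socs3). It was drawn up with earlier results of these data known. The CD8 T cell markers had 7 lower and 2 higher means (median -0.15), and their part in this split was not tested. Cish, a feedback inhibitor induced by STAT5, was at 6.84 and 8.81 FPKM in ACSS2NLS, against 16.4 and 16.2 FPKM in EV. Its log2 change of -0.98 ± 0.15 (SE) had an unadjusted p of 0.0009 and an adjusted p of 0.742 (limma-trend).

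Socs3, a feedback inhibitor of STAT3, was at 14.2 and 11.2 FPKM in ACSS2NLS, against 53.6 and 20.8 FPKM in EV (-1.34 ± 0.43 SE), and Socs1 was at 21.1 and 19.4 FPKM in ACSS2NLS, against 42.8 and 24.6 FPKM in EV (-0.66 ± 0.26 SE). For both, EV replicate 1 was far above the other 3 libraries. Jak3, the kinase of the common gamma chain, was at 88.0 and 94.2 FPKM in ACSS2NLS, against 112 and 107 FPKM in EV (-0.26 ± 0.12 SE). None of these genes passed over all genes tested.

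Genes that act on the turnover or location of MCL1 and BIM had 6 higher and 6 lower means among 12 tested (median log2 change 0.0083), and 0 passed. Dynll1, a dynein light chain that tethers BIM, was at 42.7 and 34.5 FPKM in ACSS2NLS, against 31.1 and 25.0 FPKM in EV (0.45 ± 0.16 SE, limma-trend, adjusted p = 0.81), with the groups apart. Mapk3, a kinase that marks BIM for degradation, was at 13.2 and 13.7 FPKM in ACSS2NLS, against 18.6 and 14.9 FPKM in EV, with the ACSS2NLS libraries lower than either EV library (-0.29 ± 0.14 SE). Cul5, a ubiquitin ligase scaffold, was at 4.88 and 5.78 FPKM in ACSS2NLS, against 4.74 and 4.46 FPKM in EV. Groups of this list lay apart upward for 3 genes, Dynll1 and Cul5 among them, and downward for 2, Mapk3 among them. Over all genes tested the shares were 19.3% and 18.1%.

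**Figure D4:**
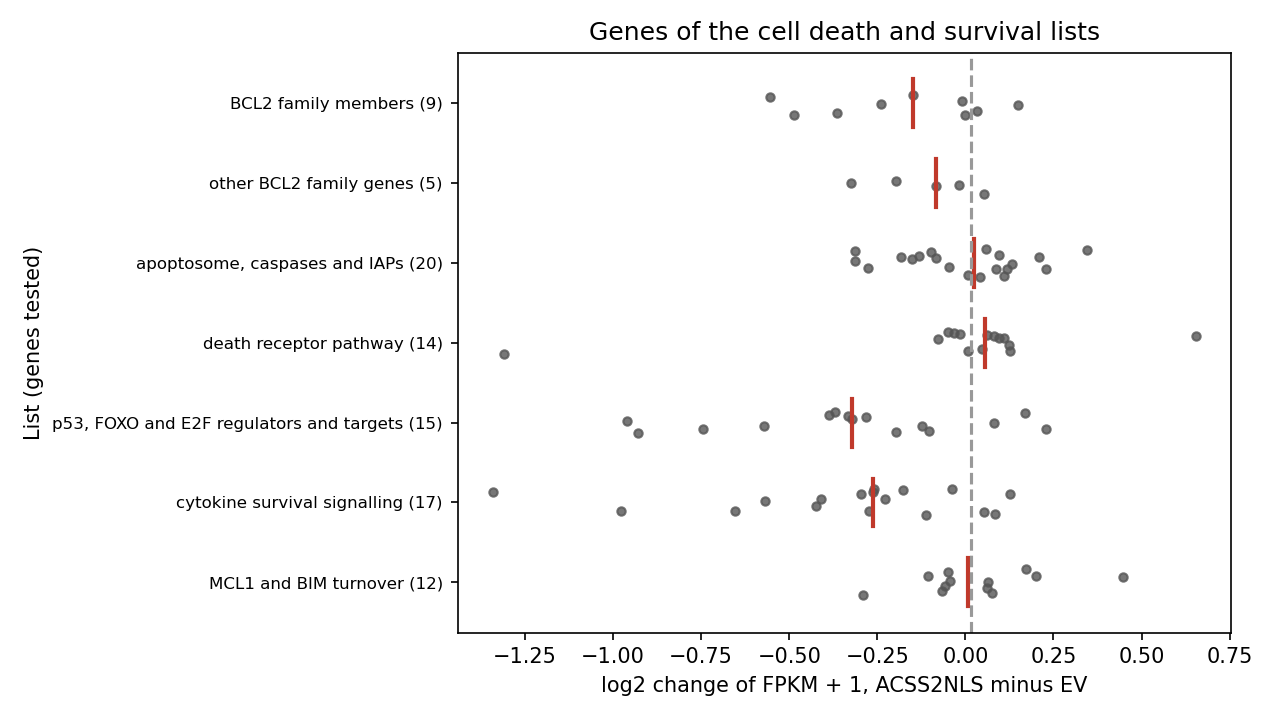
Difference of mean log2(FPKM + 1), ACSS2NLS minus EV, for each tested gene of 7 lists, with list medians as red bars, the median of all 9810 genes as a dashed line and vertical jitter for legibility only. The medians of the p53, FOXO and E2F list (-0.32) and the cytokine list (-0.26) lie farthest from the dashed line.

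These comparisons rest on 2 libraries a group. Nothing in the labels shows that the libraries of a group derive from different animals; the p-values therefore describe the spread of these libraries alone, and that spread may be technical. The intervals of the A1 copies, Mcl1 and Bcl2l1 lay within 0.45 of 0 on the log2 scale, whereas those of Bcl2, Bcl2l11 and Pmaip1 reached to -1.26, 0.92 and -1.54, before any adjustment over genes. These intervals are not limits of detection at the adjusted threshold, which Cish missed with a log2 change of -0.98.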

How the data were processed

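The authors deposited a single table of FPKM values with 3 decimals. HOMER made them, per the file headers, from sense-strand tags on RefSeq exons (mm10), with 1 transcript per gene; the submitters' processing notes name STAR 2.5.3a. No source used here says whether the libraries were stranded. The header names 8 tag directories and the table has 4 library columns, Acss2OE read as ACSS2NLS and Acss2WT as EV. Exon length, also deposited by the authors as another column, turned low FPKM into tags: 100% of values up to 50 tags, in genes of 500 to 2000 bases, were whole within 0.1 of a tag, which gives the depth and its counting error (a lower limit, since amplified reads are not independent molecules). From FPKM, log2(FPKM + 1) was tested for 9810 genes by two-sided limma-trend tests (limma 3.58.1, R 4.3.3), Benjamini-Hochberg adjusted; the test was run on simulated data first. The log2 change is ACSS2NLS minus EV and understates low genes. Sequences came from GENCODE M21 and RefSeq, aligned with Biopython 1.88. Members and lists were chosen with earlier results of these data known. All members, all other BCL2 family genes and, per list, up to 4 genes with the smallest unadjusted p were named, except 1 gene that is not reported here; others were chosen after their values were seen. Alternatives were other pseudocounts, filters, scalings, no trend, a replicate block and leaving out each library.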

Additional observations from a re-analysis of the deposited data

How the results depend on the processing

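No BCL2 family gene passed the threshold, higher or lower, with pseudocounts of 0.1 or 0.5, no filter, a mean of at least 5 FPKM, quantile or median-of-ratios scaling, limma without trend, or any library left out. The replicate block, a term for the replicate number, left 1 residual degree of freedom; with it 1 member passed, Pmaip1 (-0.55 ± 0.13 SE, limma adjusted p = 0.0174), as did 229 genes upward and 172 downward, against 2 and 0 without it. In the lists it called 1 death receptor gene up and 1 down, 1 turnover gene up, 3 p53, FOXO and E2F genes down and 4 cytokine genes down, against 0 in each without it. The labels do not say what the number marks, and with 2 numbers a shared source cannot be shown; replicate 1 minus replicate 2 correlated between the groups across 9810 genes (r = 0.583). With no filter 38 genes passed upward and 4 downward. When a library was left out, 2 passed upward each time and 0 to 9 downward, the highest without EV replicate 1. Directions turned when a library was left out for Bcl2l1 (-0.15 to 0.21, negative without ACSS2NLS replicate 2), Bcl2a1b (-0.16 to 0.14, positive without EV replicate 2, and 0.00058 without ACSS2NLS replicate 2), Bcl2a1d (-0.039 to 0.034, positive without EV replicate 2 at 0.034 and ACSS2NLS replicate 2 at 0.026) and Bcl2l11 (-0.21 to 0.51, negative without EV replicate 1 at -0.16 or ACSS2NLS replicate 2). Under quantile normalization Bcl2a1b was at 0.040 and Bcl2a1d at 0.029. The cause was not tested. The mean log2 ratio turned sign for Bcl2l11 to Mcl1 without EV replicate 1 (0.30 with all libraries, -0.034 without it), for Bcl2 to Mcl1 (-0.34 and 0.15) and Bax to Bcl2 (0.25 and -0.31) without EV replicate 2, and for Pmaip1 to Mcl1 without ACSS2NLS replicate 2 (-0.41 and 0.14). Bak1 rested on 51 to 96 tags per library, and the part of depth in its spread was not tested.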

Other observations

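Several genes of these lists, chosen here after their values were seen, had their highest and lowest value in the same libraries. Gadd45b, a stress and NF-kappaB response gene, was at 56.7 and 25.3 FPKM in ACSS2NLS replicates 1 and 2, against 117 and 47.3 FPKM in EV replicates 1 and 2. As for Pmaip1 and Tnfaip3, EV replicate 1 was the highest and ACSS2NLS replicate 2 the lowest of the 4. The summed CD8 T cell markers had the same extremes, while the summed myeloid and melanoma markers were lowest in EV replicate 1 and highest in ACSS2NLS replicate 2. Bcl2l11 was lowest and highest in those libraries too, and the part of other cells in these orders was not tested. Fasl, the ligand of FAS, was at 40.8 and 25.5 FPKM in ACSS2NLS, against 39.2 and 29.9 FPKM in EV, with replicate 2 lower in each group. Caspase-8 (Casp8), the caspase that death receptors activate, was at 31.8 and 29.7 FPKM in ACSS2NLS, against 30.5 and 32.4 FPKM in EV, and the groups overlapped.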
